A study of Saccharomyces cerevisiae with 48 samples.

Results

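Pericentromeric DNA was defined as every listed position within 25 kb of the centromere of its chromosome, with 1 rounded centromere position per chromosome. The rule found 313 of the 4568 listed positions. The positions are 2.5 kb apart, and 323 of them would fall in these 16 regions, of which 10 are not listed in the tables. Each chromosome contributes 17 to 21 positions, and 11 chromosomes have every one. The rule used coordinates only and no measured value, though the positions were chosen with earlier results of these data known.

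The centromere is the site where the kinetochore forms and attaches the chromosome to spindle microtubules. In mitotic budding yeast, centromeric DNA is known to replicate early in S phase, and the Ctf19 complex of the kinetochore recruits the Dbf4-dependent kinase DDK (Cdc7-Dbf4), which activates nearby replication origins. The same recruitment helps to load cohesin around the centromere, where cohesin holds sister chromatids together until the second meiotic division.

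Total DNA of budding yeast (Saccharomyces cerevisiae) was sequenced at 7 times from 1 to 4 hr after cells entered synchronous meiosis in potassium acetate medium. There were 6 cultures, 1 per strain, and 42 samples with values. Wild-type, DDK-overproducing (DDK OP) and tof1∆ cells were each grown as an ARS+ culture, with the origins of chromosome III in place, and as an ars∆ culture. From what is known of the study, the ars∆ strains lack the active origins on the left side of chromosome III, which the labels do not list. Tof1 is a subunit of the fork protection complex that travels with the replication machinery and holds DDK there. The promoter that overproduces DDK is not given in the labels. No strain has a second culture, so the cultures served as replicates of one another and their spread includes the differences between genotypes.

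The deposited value is a ratio, which at the pericentromeric positions ran from 0.839 to 1.42. It was expressed here as log2 of the ratio over the median ratio of the same sample. A position above 0 has a higher ratio than the median position of its sample. DNA that replicates before most of the genome would lie above 0 during S phase, but a value above 0 need not mean early replication. Chromosomes I and VI, for example, were above 0 on average at 1 hr, near the centromere and elsewhere. The denominator of the ratio and the sequencing depth are not given in the sources used here, so the values carry no counting interval. The coordinates are those of the build sacCer2.

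The pericentromeric positions rose above the rest of the genome in every culture, were highest in mid S phase and came part of the way back by 4 hr. Their mean level minus the mean level of the other 4255 positions was 0.011 ± 0.0064 (SD, n = 6 cultures) at 1 hr and 0.021 ± 0.015 (SD, n = 6) at 1.5 hr. The next times gave 0.044 ± 0.016 (SD, n = 6) at 2 hr, 0.083 ± 0.035 (SD, n = 6) at 2.5 hr and 0.10 ± 0.025 (SD, n = 6) at 3 hr. It then went down to 0.091 ± 0.019 (SD, n = 6) at 3.5 hr and 0.060 ± 0.011 (SD, n = 6) at 4 hr. The difference was above 0 in 6 of 6 cultures at each of the 7 times. In plain ratios, the pericentromeric mean went from 1.009 at 1 hr to 1.068 at 3 hr. That is a gain of a few percent relative to the rest of the same sample. Sample medians lay between 0.9958 and 1.0, so a gain shared by the whole genome does not appear in these ratios.

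**Figure D1:**
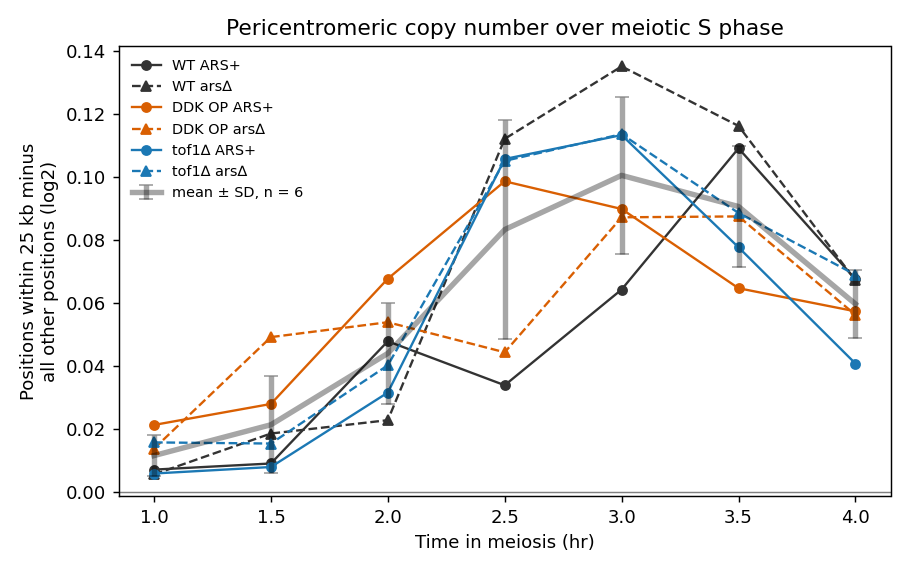
Mean log2 level of the pericentromeric positions minus that of all other positions (y axis) by time in meiosis in hr (x axis), with 1 line per culture and the mean ± SD of the 6 cultures in grey. All 42 points lie above 0, and the mean climbs from 0.011 at 1 hr to 0.10 at 3 hr and is 0.060 at 4 hr.

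The cultures differed in when they reached their maximum. Wild-type ARS+ cells were among the latest, with 0.048 at 2 hr, 0.034 at 2.5 hr, 0.064 at 3 hr and a maximum of 0.11 at 3.5 hr. Wild-type ars∆ cells had 0.023 at 2 hr and 0.11 at 2.5 hr, and reached 0.14 at 3 hr, the highest value of the 6 cultures. Both tof1∆ cultures had their maximum at 3 hr, at 0.11.

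In DDK OP cells the difference was larger than in the other 4 cultures at 1.5 and 2 hr. At 2 hr the difference was 0.068 in DDK OP ARS+ and 0.054 in DDK OP ars∆, and in the other 4 cultures it lay between 0.023 and 0.048. These values were 68.6% and 61.6% of the cultures' own maxima, against 16.8% to 43.8% in the other 4. The DDK OP maxima were the lowest of the 6 cultures, which raises these percentages. At 1 hr the difference was already 0.021 in DDK OP ARS+ and 0.014 in DDK OP ars∆, against 0.0054 to 0.016 in the other 4. How much of the order at 2 hr was present at 1 hr was not tested. The DDK OP ARS+ culture peaked at 2.5 hr (0.099) and the DDK OP ars∆ culture at 3.5 hr (0.087), after 0.044 at 2.5 hr. The spread of 10-kb windows over the rest of the genome was also nearer to its own maximum at 2 hr in DDK OP cells, at 86.6% or more against 63.5% to 73.8% in the other 4 cultures. At 1 hr this spread was already 0.056 in DDK OP ARS+ and 0.054 in DDK OP ars∆, against 0.045 to 0.056 in the other 4. Its maxima were 0.073 and 0.067 in DDK OP, and 0.071 to 0.091 in the other 4. The part of the 1 hr spread in these percentages was not tested. Culture timing and the kinase background cannot be told apart, since each strain was grown once.

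The share of pericentromeric positions above their sample's median gives the same course in another form. At 1 hr it was 54.1% ± 4.0 (SD, n = 6), close to the 50% that a median sets for the whole genome. By 3 hr it reached 88.4% ± 3.7 (SD, n = 6), and 78.7% ± 6.7 (SD, n = 6) were still above the median at 4 hr.

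Single positions were tested next, over all 4568 positions together. The rise of a position was defined as its mean level from 2 to 4 hr minus its level at 1 hr in the same culture, so that an offset that stays constant over time drops out. The rise was compared with 0 over the 6 cultures with limma and Benjamini-Hochberg adjustment, with calls at an adjusted p under 0.05. Of all positions tested, 14.1% were called higher and 12.2% lower. Among the pericentromeric positions 211 of 313 (67.4%) rose and 1 (0.319%) fell, while among the other positions 10.2% rose and 13.1% fell. The median rise was 0.067 at the pericentromeric positions and -0.003 over all positions.

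Level over the whole course was tested in the same way, as the mean from 1 to 4 hr against 0. In limma 7.44% of all positions were called above their sample's median, and 112 of the 313 pericentromeric positions (35.8%) were, against 5.36% of the others. Without the WT ars∆ culture the count was 69, and the share over all positions in that fit is not given here. The medians were 0.049 at the pericentromeric positions and -0.0021 over all positions. In limma none was called below the median, against 3.85% of all positions, and none had an unadjusted p under 0.05 in that direction, against 626 of all 4568.

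A median pericentromeric position had an SD of 0.046 over the 6 cultures in its rise, and a median position elsewhere 0.043. Its standard error was 0.019 in the limma fit. A rise above 0 in 6 of 6 cultures was found at 168 pericentromeric positions (53.7%) and at 9.87% of the others. Neighbouring positions are not independent measurements. Between pericentromeric neighbours 2.5 kb apart, the levels at 3 hr correlated at 0.67 at the median of the 6 cultures, over 293 pairs of positions, and at 0.38 over 274 pairs 5 kb apart.

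On average the rise was as large between 15 and 20 kb from the centromere as beside it, and smaller between 20 and 25 kb. In bins of 5 kb, from the centromere outward, the mean rise was 0.061 ± 0.0077, 0.064 ± 0.014, 0.060 ± 0.013, 0.063 ± 0.012 and 0.052 ± 0.018 (SD, n = 6 cultures each, 60 to 67 positions a bin). The same 6 cultures make up every bin. From the bin at 15 to 20 kb to that at 20 to 25 kb, the rise went down in every culture but WT ars∆, which had 0.079 and 0.084. The share of positions called as rising was 73.1% within 5 kb (49 of 67) and lower between 20 and 25 kb (31 of 62).

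The boundary of 25 kb cut through a shoulder rather than a step. The rise was 0.050 ± 0.011 (SD, n = 6) in the 63 positions between 25 and 30 kb, just outside it. It was 0.039 ± 0.0092 (SD, n = 6) between 30 and 35 kb, 0.031 ± 0.0096 (SD, n = 6) between 35 and 40 kb and 0.024 ± 0.0089 (SD, n = 6) between 40 and 45 kb. Within 25 kb the rise exceeded that of the 312 positions at 25 to 50 kb by 0.026 ± 0.0079 (SD, n = 6), and did so in 6 of 6 cultures. Those farther positions in turn exceeded the positions beyond 50 kb by 0.042 ± 0.0096 (SD, n = 6).

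**Figure D2:**
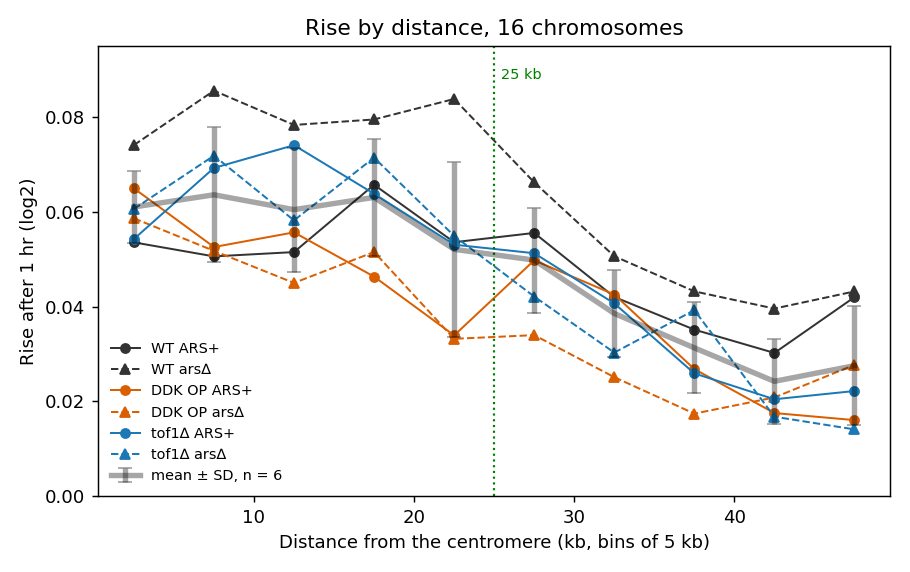
Rise after 1 hr on the log2 scale (y axis) in 5-kb bins of distance from the centromere in kb (x axis), over 16 chromosomes, with 1 line per culture, the mean ± SD of the 6 cultures in grey and a dotted line at 25 kb. The mean stays between 0.052 and 0.064 up to 25 kb and is 0.028 in the bin from 45 to 50 kb.

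Both sides of the centromere took part. The rise was 0.058 ± 0.011 (SD, n = 6) over the 152 positions on the left and 0.062 ± 0.014 (SD, n = 6) over the 158 on the right. Sides differed on single chromosomes: on chromosome I the left side rose by 0.028 and the right side by 0.061, and on chromosome XV the values were 0.062 and 0.090.

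Chromosomes differed from each other more than positions did within a chromosome. Of the sum of squares of the rise over the 313 positions, 66.6% lay between chromosomes. On 14 of the 16 chromosomes the pericentromeric mean rose in 6 of 6 cultures, and on the same number it exceeded the rest of its own chromosome in 6 of 6 cultures. On 12 chromosomes more than 50% of the positions were called as rising.

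The largest rises were on chromosomes II, IV and X. On chromosome II, whose centromere lies between ECM15 and the trehalase gene NTH2 in the gene order of assembly R64, the 17 positions rose by 0.092 ± 0.014 (SD, n = 6), and all 17 were called. The cultures had 0.096 (WT ARS+), 0.10 (WT ars∆), 0.10 (DDK OP ARS+), 0.070 (DDK OP ars∆), 0.083 (tof1∆ ARS+) and 0.10 (tof1∆ ars∆), a narrow range. On chromosome X, between the proteasome subunit gene PRE3 and the vacuolar transporter gene AVT1, the rise was 0.086 ± 0.020 (SD, n = 6) and 20 of 20 positions were called.

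Chromosome IV had the same mean with a wider spread. Its 20 positions, around a centromere between RMD1 and the trehalase gene NTH1, rose by 0.092 ± 0.040 (SD, n = 6), and 19 were called. The 3 highest cultures were WT ars∆ with 0.14, tof1∆ ars∆ with 0.13 and tof1∆ ARS+ with 0.10. WT ARS+ had 0.044, DDK OP ars∆ 0.048 and DDK OP ARS+ 0.087.

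Another 8 chromosomes (V, VII, IX, XI, XII, XIII, XIV and XV) had mean rises between 0.058 and 0.078, and between 14 and 19 of their 20 or 21 positions were called. Chromosome XIII belongs to these, with the polo-like kinase gene CDC5 next to its centromere, a rise of 0.073 ± 0.015 (SD, n = 6) and 17 of 20 positions called. Chromosome VI rose by 0.057 ± 0.025 (SD, n = 6) with 11 of 18 called, and chromosome I by 0.043 ± 0.019 (SD, n = 6) with 6 of 19.

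**Figure D3:**
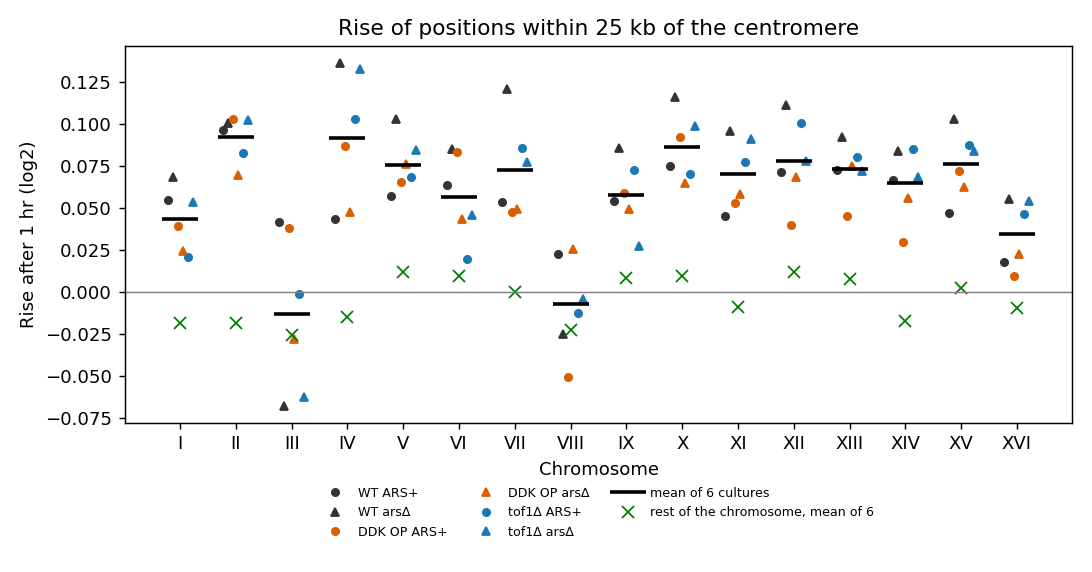
Rise after 1 hr on the log2 scale (y axis) of the pericentromeric positions of each chromosome (x axis), with 1 point per culture, a black bar for the mean of 6 cultures and a green cross for the mean of the rest of that chromosome. The bars of III and VIII lie below 0, at -0.013 and -0.0074, and the other 14 lie between 0.034 and 0.092. On III the ARS+ cultures average 0.026 and the ars∆ cultures -0.053.

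Chromosomes III, VIII and XVI had the lowest mean rises, with XVI nearer to chromosome I than to the other two. The mean of III joins ARS+ cultures, at 0.026, with ars∆ cultures, at -0.053, which lack origins of that chromosome. In the ARS+ cultures VIII had -0.014 and XVI 0.025. They hold 57 of the 313 positions and 4 of the 211 called rises, all 4 on chromosome XVI. With these 3 chromosomes left out, which was decided after their values were seen, the mean rise was 0.072 ± 0.016 (SD, n = 6) in place of 0.060 ± 0.012 (SD, n = 6), and 207 of 256 positions were called.

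On chromosome VIII, whose centromere lies between the ribosomal protein gene RPL14B and the oxysterol-binding protein gene OSH7, the rise was -0.0074 ± 0.029 (SD, n = 6). Its cultures had 0.022 (WT ARS+), -0.025 (WT ars∆), -0.051 (DDK OP ARS+), 0.026 (DDK OP ars∆), -0.013 (tof1∆ ARS+) and -0.0041 (tof1∆ ars∆), on both sides of 0. None of the 18 positions was called higher, and 1 was called lower. It lies at position 120000, 15 kb to the right of the centromere, and fell in 6 of 6 cultures by between 0.024 and 0.17, with a mean of -0.077 ± 0.019 (SE) and a limma adjusted p of 0.0071. Its mean level had no steady course: it was 0.023 at 1 hr, 0.032 at 1.5 hr, 0.018 at 2 hr, 0.012 at 2.5 hr, 0.027 at 3 hr, 0.0030 at 3.5 hr and 0.016 at 4 hr. The rest of chromosome VIII had a rise of -0.023. In 5 of 6 cultures its pericentromeric positions exceeded the rest of the chromosome, by 0.015 ± 0.024 (SD, n = 6) on average.

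Chromosome XVI, with HAT1, which encodes a histone acetyltransferase, and the citrate synthase gene CIT3 beside the centromere, rose late and little. Its mean level was -0.014 ± 0.011 (SD, n = 6) at 1 hr, still -0.0045 ± 0.015 (SD, n = 6) at 2 hr, 0.036 ± 0.027 (SD, n = 6) at 3.5 hr and 0.032 ± 0.033 (SD, n = 6) at 4 hr. The rise was 0.034 ± 0.020 (SD, n = 6), above 0 in 6 of 6 cultures, and 4 of 20 positions were called.

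**Figure D4:**
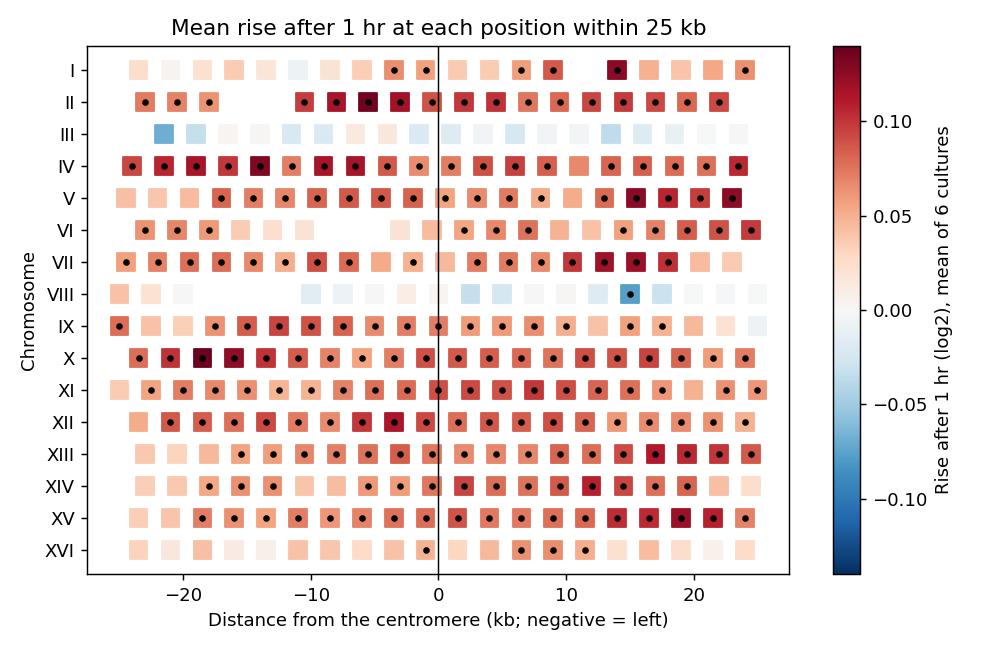
Mean rise after 1 hr of the 6 cultures at each of the 313 pericentromeric positions, as colour on the log2 scale, by distance from the centromere in kb (x axis, negative to the left) and chromosome (y axis). A black dot marks a limma adjusted p under 0.05 and gaps are positions that are not listed; the rows of II and X are filled with called rises, that of IV holds 19 of 20, and those of III and VIII hold none.

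Chromosomes I and VI were high from the start. At 1 hr their pericentromeric levels were 0.12 ± 0.049 and 0.099 ± 0.032 (SD, n = 6), and the rest of chromosome I was then at 0.11 and the rest of VI at 0.093. They hold 37 of the 112 positions called above the median over the whole course, all 19 listed positions of I and all 18 of VI, and 75 remain without these 2 chromosomes. The maximum at 3 hr was 0.20 ± 0.035 (SD, n = 6) on I and 0.18 ± 0.048 (SD, n = 6) on VI. Chromosome III also began high, with 0.063 near the centromere and 0.065 elsewhere. Over the 16 chromosomes the 1 hr level near the centromere followed that of the rest of the same chromosome (Pearson r = 0.987, Spearman rho = 0.715; without I and VI, 0.940 and 0.574). These points share the same 6 samples. The cause of the raised level of whole chromosomes at 1 hr was not tested. The rise subtracts the 1 hr level, and so removes only what stays constant in time.

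The mean rise of a chromosome's pericentromeric positions was larger on longer chromosomes, as a description over 16 points that share the same 42 samples (Pearson r = 0.558, Spearman rho = 0.627, against the last listed position). Without I and IV, the chromosomes farthest from the median length, the values were 0.515 and 0.543. Chromosome III is included with its ars∆ cultures. The level over 1 to 4 hr went the other way with length (Pearson r = -0.492, Spearman rho = -0.394). Chromosomes I and VI, the shortest, had levels of 0.15 and 0.14, and the next highest, X, had 0.068. A value without I and VI is not given here, so this relation may rest on them.

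Among single positions, the largest rise was 0.14 ± 0.019 (SE, limma adjusted p = 0.000495), at position 417500 of chromosome X, 18.5 kb to the left of the centromere. Its cultures had 0.088 (WT ARS+), 0.17 (WT ars∆), 0.21 (DDK OP ARS+), 0.15 (DDK OP ars∆), 0.093 (tof1∆ ARS+) and 0.12 (tof1∆ ars∆), all above 0. The next was position 232500 of chromosome II, 5.5 kb to the left, with 0.14 ± 0.018 (SE, limma adjusted p = 0.000495) and cultures between 0.11 and 0.19. The other 8 of the 10 largest lay on chromosomes I, IV, V, VII, X and XV, 13 to 23 kb from their centromeres. They had rises between 0.12 and 0.13 and limma adjusted p-values between 0.000495 and 0.0048, and 6 of these 8 were above 0 in 6 of 6 cultures. The exceptions, position 435000 of chromosome IV and position 165000 of chromosome I, were above 0 in 5 of 6.

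The positions nearest to the 16 centromeres, within 1 kb of them, rose in 12 cases in limma. The largest of these were 0.092 ± 0.017 (SE, limma adjusted p = 0.0014) on XII, 0.090 ± 0.018 (SE, limma adjusted p = 0.0021) on XI and 0.090 ± 0.017 (SE, limma adjusted p = 0.0014) on X, each above 0 in 6 of 6 cultures. On VI and VII the nearest positions had 0.045 ± 0.020 and 0.045 ± 0.018 (SE), above 0 in 5 of 6 cultures, and did not pass (limma adjusted p = 0.097 and 0.068). On III and VIII they had -0.018 ± 0.024 and 0.0024 ± 0.019 (SE).

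By level over 1 to 4 hr, the highest positions were on chromosomes I and VI. Position 167500 of chromosome I, 16.5 kb to the right of the centromere, had 0.22 ± 0.021 (SE, limma adjusted p = 5.9e-06), with cultures from 0.13 to 0.30. Position 165000 of chromosome VI, 17 kb to the right, had 0.19 ± 0.020 (SE, limma adjusted p = 8.9e-06), with cultures from 0.11 to 0.28. Both lie on the chromosomes that were high as a whole at 1 hr. By chromosome, the level was highest on I, VI and X, at 0.15 ± 0.045, 0.14 ± 0.042 and 0.068 ± 0.018 (SD, n = 6). It was lowest on XVI, VIII and IX, at 0.013 ± 0.015, 0.019 ± 0.016 and 0.027 ± 0.0067 (SD, n = 6).

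Between 3 and 4 hr the mean level of the pericentromeric positions went down in 5 of 6 cultures. The exception was WT ARS+, which peaked at 3.5 hr and had 0.062 at 3 hr and 0.063 at 4 hr. The median change from 3 to 4 hr was -0.038 at the pericentromeric positions and -0.0021 over all positions. In limma 0.0219% of all positions were called lower, 1 position, and none of the 313 pericentromeric ones was. At an unadjusted p under 0.05 the numbers were 91 of 313 and 367 of 4568. The lowest p-values belonged to 3 positions with a limma adjusted p of 0.069. Of these, position 170000 of chromosome I, 19 kb to the right of the centromere, changed by -0.13 ± 0.026 (SE) and position 130000 of the same chromosome, 21 kb to the left, by -0.11 ± 0.024 (SE). Position 150000 of chromosome V, 2 kb to the left of the centromere, changed by -0.11 ± 0.025 (SE). All 3 were lower at 4 hr in 6 of 6 cultures. Without the WT ARS+ culture 3 positions were called, without DDK OP ARS+ 1, all on chromosome I, and with a running mean of 3 positions 12 were called, on chromosomes I and V. The share called over all 4568 positions under these settings is not given here, so these counts have no background.

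The comparison of ars∆ with ARS+ cultures asks how far the loss of origins from chromosome III reaches the pericentromere. In limma, with background as a term, 0.219% of all positions were called in either direction, and none of the pericentromeric ones was. The called positions were all lower in ars∆. They lay left of the centromere of chromosome III, between positions 35000 and 85000, and on chromosomes VII and XV. The nearest to a centromere was position 85000 of chromosome III, at -29 kb (negative to the left), with a difference of -0.245. Of the 313 pericentromeric positions 21 had an unadjusted p under 0.05, 10 lower in ars∆ and 11 higher, against 118 lower and 93 higher of all 4568. The 10 lower ones all lay on chromosome III. The median difference was 0.011 at the pericentromeric positions and 0.00049 over all positions. Without chromosome III, the rise over the pericentromeric positions was 0.058 ± 0.0078 in ARS+ and 0.071 ± 0.018 in ars∆ cultures (SD, n = 3 each). The difference there was 0.034 for wild type, 0.0014 for DDK OP and 0.0047 for tof1∆.

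Chromosome III itself was lower in ars∆ cells in each background. The rise of its 19 pericentromeric positions was 0.042 in WT ARS+ and -0.068 in WT ars∆. It was 0.038 in DDK OP ARS+ and -0.028 in DDK OP ars∆, and -0.00091 in tof1∆ ARS+ and -0.063 in tof1∆ ars∆. The ARS+ cultures therefore had the higher value in 3 of 3 pairs, with a mean difference of -0.079 ± 0.027 (SD, n = 3 pairs), and the 2 groups did not overlap. On 3 other chromosomes, V, XI and XVI, the difference also had one sign in 3 of 3 pairs, there higher in ars∆, with means of 0.024, 0.023 and 0.020. At 3 hr the level was 0.096 (WT ARS+), 0.11 (DDK OP ARS+) and 0.081 (tof1∆ ARS+), and -0.034, 0.058 and -0.0052 in the ars∆ partners.

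The earlier times did not show this order. At 1 hr, the baseline of the rise, chromosome III stood at 0.033 in WT ARS+ and 0.056 in WT ars∆, at 0.047 in tof1∆ ARS+ and 0.10 in tof1∆ ars∆, and at 0.085 in DDK OP ARS+ and 0.057 in DDK OP ars∆. At 2 hr the ars∆ culture was also the higher one in wild type (0.078 against 0.046) and in tof1∆ (0.13 against 0.027), and the lower one in DDK OP (0.026 against 0.10). Averaged from 1 to 4 hr, chromosome III was lower in ars∆ in wild type (0.0099 against 0.061) and DDK OP (0.040 against 0.11) but higher in tof1∆ (0.059 against 0.044). The part of the 1 hr level in the difference in rise was not tested.

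The mean difference was larger on the left of the centromere than on the right, though by little in wild type. Over the 9 positions on the left, the rise differed by -0.12 (wild type), -0.11 (DDK OP) and -0.10 (tof1∆). Over the 10 positions on the right it differed by -0.099, -0.022 and -0.027. Farther out, the 32 listed positions of the left arm beyond 25 kb differed by -0.14 ± 0.033 (SD, n = 3 pairs), and the 67 positions of the right arm beyond 25 kb by -0.0087 ± 0.011 (SD, n = 3 pairs). The difference between the sides was not tested.

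**Figure D5:**
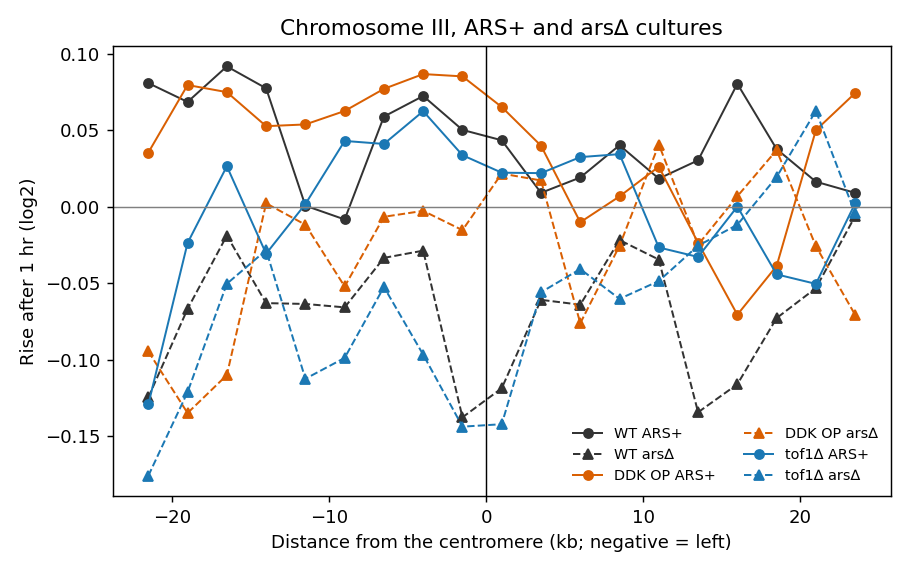
Rise after 1 hr on the log2 scale (y axis) at the 19 listed pericentromeric positions of chromosome III, by distance from the centromere in kb (x axis, negative to the left), with solid lines for ARS+ and dashed lines for ars∆ cultures. Averaged over the 9 positions on the left, the rise is 0.042 in ARS+ and -0.071 in ars∆ cultures. Over the 10 on the right it is 0.013 and -0.036.

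The position with the lowest p was 112500 on chromosome III, 1.5 kb to the left of the centromere. Its rise was 0.050 (WT ARS+), 0.085 (DDK OP ARS+) and 0.034 (tof1∆ ARS+), and -0.14, -0.015 and -0.14 in the ars∆ partners. The difference was -0.16 ± 0.036 (SE), with a limma adjusted p of 0.080, which did not pass the threshold. Position 95000, 19 kb to the left, had -0.15 ± 0.037 (SE, limma adjusted p = 0.12) and position 97500, 16.5 kb to the left, -0.12 ± 0.037 (SE, limma adjusted p = 0.33). The ARS+ and ars∆ cultures did not overlap at these 3 positions. They were chosen for their low p in the same comparison, so the separation adds nothing to it. Where the mean of 1 and 1.5 hr served as the baseline, 6 of the 313 pericentromeric positions were called lower in ars∆. All 6 lay on the left of the centromere of III, 1.5 to 21.5 kb from it, with differences between -0.12 and -0.15. The share called over all 4568 positions with that baseline is not given here, so the count has no background.

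The comparisons of DDK OP and tof1∆ with wild type ask whether kinase abundance or a change in the fork protection complex shifts pericentromeric replication. For DDK OP, 0.0438% of all positions were called in limma, and none of the 313 pericentromeric ones was, with 16 lower and 2 higher at an unadjusted p under 0.05, against 126 lower and 119 higher of all 4568. For tof1∆, 0% of all positions were called, and 10 of the 313 pericentromeric positions had an unadjusted p under 0.05, against 251 of all 4568, a smaller share than in the whole genome. The standard error of a difference at a median pericentromeric position was 0.045, close to the size of the rise itself. The median differences at the pericentromeric positions were -0.018 for DDK OP and -0.0034 for tof1∆, and -0.00044 and 6.5e-05 over all positions.

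Averaged over the pericentromeric positions, the rise was 0.055 and 0.080 in the ARS+ and ars∆ cultures of wild type, 0.051 and 0.048 in those of DDK OP, and 0.063 and 0.063 in those of tof1∆. The DDK OP values lay below both wild-type values, while those of tof1∆ lay between them. The DDK OP mean was lower than the wild-type mean by a difference of -0.018 near the centromere and of -0.017 at 25 to 50 kb. On 15 of 16 chromosomes the mean of the DDK OP cultures was below that of wild type, and on 6 of them DDK OP was below in both ARS states. These chromosomes share the same cultures. Over all pericentromeric positions the difference was -0.0041 between the ARS+ cultures and -0.032 between the ars∆ cultures. At 2 hr the order was the other way, with a level of 0.066 and 0.052 in DDK OP, 0.045 and 0.024 in wild type and 0.029 and 0.040 in tof1∆. The level at 1 hr, the baseline of the rise, was 0.023 and 0.015 in DDK OP and 0.0063 and 0.0066 in wild type. Averaged from 1 to 4 hr, the mean level was 0.057 in DDK OP and 0.056 in wild type. With 2 cultures a background, and those of different ARS states, no test of these means was made.

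The positions with the lowest p in each of these comparisons did not pass the threshold. For DDK OP they were positions 172500 and 175000 of chromosome I, 21.5 and 24 kb to the right of the centromere, with differences of -0.15 ± 0.043 and -0.15 ± 0.044 (SE, limma adjusted p = 0.62 for both), and position 220000 of chromosome II with -0.14 ± 0.046 (SE, limma adjusted p = 0.80). For tof1∆ the lowest p was at position 227500 of chromosome II, 10.5 kb to the left of the centromere, where the rise was 0.14 and 0.20 in the tof1∆ cultures and 0.058 and -0.052 in wild type. That difference was 0.17 ± 0.047 (SE, limma adjusted p = 0.50). Positions 85000 of chromosome VIII and 172500 of chromosome VI had -0.14 ± 0.048 and -0.13 ± 0.045 (SE, limma adjusted p = 0.77 and 0.78).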

How the data were processed

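The authors deposited 1 table per strain of ratios, a relative copy number per position and time from total DNA. BWA and the build sacCer2 are named in the submitters' processing notes, without a version of BWA. The labels name 48 samples, and the 6 taken at 0 hr have no column in the tables used. Each ratio was divided by its sample's median ratio, and log2 was taken. limma 3.58.1 in R 4.3.3 (lmFit, eBayes) was fitted per position over all 4568 positions, with the culture as replicate. Level, rise and change from 3 to 4 hr were intercepts (5 residual degrees of freedom). Genotype comparisons had terms for background and ARS state (2 residual degrees of freedom). P-values measure the spread between these 6 cultures, moderated by a variance pooled over all positions (13.5 to 16.5 prior degrees of freedom). In the genotype comparisons that spread is what the terms for background and ARS state leave over, and not a spread between cultures of 1 strain. The fits were tested on simulated data.

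Named positions were the one nearest to each centromere, up to 10 called positions with the largest differences in each direction (the leading ones are given in full), and, for a comparison without calls, the 3 of lowest p. The positions and lists were chosen with earlier results of these data known. Genes beside a centromere come from the gene order of RefSeq assembly R64, without its coordinates. Other centrings, baselines, radii, smoothing, variance trends and left-out cultures were tried.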

Additional observations from a re-analysis of the deposited data

Results flagged for a closer look

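The rise of position 237500 on chromosome II, the one nearest to its centromere, was 0.171 in the tof1∆ ARS+ culture, apart from 0.0595 to 0.0919 in the other 5 cultures. It stands out by the distance of the highest culture from the next, as a share of the whole range. Among 110 groups of 6 cultures examined in this way it was the only one, and chance alone would mark about 1 in 20.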

How the results depend on the processing

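The mean excess of the pericentromeric positions was above 0 under each alternative run, at 0.0465 to 0.0652 for the level and 0.0592 to 0.0742 for the rise. Against other positions of the same chromosome, the excess in level over 1 to 4 hr was 0.0465 in place of 0.0586. The count called above the median, 112, was 197 with a running mean of 3 positions, 45 within 10 kb, where fewer positions are counted, and 69 to 90 when 1 culture was left out (69 without WT ars∆). The 211 rises became 97 within 10 kb, and lay between 161 and 195 with 1 culture left out and between 207 and 248 under the other settings. The count falling from 3 to 4 hr, 0, was 12 with a running mean of 3 positions, on chromosomes I and V, and 0 to 3 with 1 culture left out: 3 without WT ARS+ and 1 without DDK OP ARS+. The count changed by ars deletion, 0, was 6 with 1 and 1.5 hr as the baseline, and 0 with no replicate block. For DDK OP and tof1∆ the count was 0 under each alternative run. The cause of these moves was not tested, beyond fewer positions or cultures. The share called over all 4568 positions under these settings is not given here. Settings that leave out chromosomes were chosen after seeing the data. Depth is unknown, so its limit cannot be given.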
